A study of Mus musculus with 5 samples.

Results

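Fatty acid oxidation genes and targets of the nuclear receptor PPAR alpha were followed in whole hearts of NZB_W mice with lupus nephritis and of healthy NZW mice. With earlier results of these data known, 32 genes were chosen by name for roles in fatty acid uptake, activation and oxidation and their regulation. Of these, 29 had a probe set annotated to that gene alone, the brightest of these by mean stood for the gene, and all 29 were bright enough to be tested, among 11903 genes tested in all. Acsl1, Cpt1b and Ucp2 had no such probe set in the annotation used and were not analysed here, so the muscle form of carnitine palmitoyltransferase 1 and the main acyl-CoA synthetase of the heart are not among the values that follow.

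RNA came from 3 female NZB_W mice, F1 animals of a cross that develops a spontaneous lupus-like disease, aged 12 to 15 weeks and with moderate kidney injury by Austin score, and from 2 female NZW mice of matched age with healthy kidneys. NZW is 1 of the parent strains of the cross and the mice received no treatment, so genotype and kidney disease differ together between the groups and cannot be told apart. Hearts were collected after bleeding and perfusion with saline and read on 5 Affymetrix Mouse Genome 430 2.0 arrays, called biological replicates in the titles. The study was a pilot, meant to find cardiac genes whose expression is altered as the kidney disease progresses.

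The adult heart draws most of its energy from fatty acids. Lipoprotein lipase (Lpl) frees them from circulating triglyceride, CD36 and the binding protein FABP3 carry them in, acyl-CoA synthetases activate them, and the carnitine palmitoyltransferases move them into the mitochondrion, where repeated rounds of dehydrogenation, hydration, a further dehydrogenation and thiolysis shorten the chain. Electrons pass through the electron transfer flavoprotein (Etfa, Etfb) and its dehydrogenase (Etfdh) to the respiratory chain. PPAR alpha, with its partner RXR, is activated by fatty acids and drives many of these genes, and PGC-1 alpha (Ppargc1a) is the coactivator that couples it to mitochondrial gene expression.

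PPAR alpha and RXR bind a direct repeat of AGGTCA with 1 base between the copies. This element (AGGTCA, then any base, then AGGTCA) was searched on both strands in the RefSeq windows of GRCm38.p6 that run from 250 bases before to 50 bases after each start, with up to 2 mismatches in the 12 fixed bases. Windows were found for 27 of the 32 listed genes, and 5 of these 27 genes (18.5%) held a match. The share was 3.48% of the genes tested that have a window and 4.4% of all genes with a window. The 5 are shown because they carry the letters of the factor that names the list; each line gives the 250 bases before the start, 5′ to 3′ on the strand of the gene, with the match in capitals.
Plin2 (chr4:86670060-86670309, minus strand): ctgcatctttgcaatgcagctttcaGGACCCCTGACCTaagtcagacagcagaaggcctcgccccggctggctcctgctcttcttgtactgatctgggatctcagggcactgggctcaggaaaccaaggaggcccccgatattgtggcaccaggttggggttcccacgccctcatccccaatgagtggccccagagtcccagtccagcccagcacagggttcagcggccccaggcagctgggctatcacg
Cd36 (chr5:17835897-17836146, minus strand): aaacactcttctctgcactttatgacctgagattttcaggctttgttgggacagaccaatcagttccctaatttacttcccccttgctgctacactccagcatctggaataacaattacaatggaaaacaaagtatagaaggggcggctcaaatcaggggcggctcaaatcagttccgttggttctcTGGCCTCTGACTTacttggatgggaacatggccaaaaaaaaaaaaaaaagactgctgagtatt
Ucp3 (chr7:100472741-100472990, plus strand): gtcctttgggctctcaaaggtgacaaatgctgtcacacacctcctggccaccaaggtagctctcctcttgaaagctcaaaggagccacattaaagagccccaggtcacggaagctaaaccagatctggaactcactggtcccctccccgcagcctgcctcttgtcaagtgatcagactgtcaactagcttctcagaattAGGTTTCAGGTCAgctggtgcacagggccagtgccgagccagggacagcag
Echs1 (chr7:140116422-140116671, minus strand): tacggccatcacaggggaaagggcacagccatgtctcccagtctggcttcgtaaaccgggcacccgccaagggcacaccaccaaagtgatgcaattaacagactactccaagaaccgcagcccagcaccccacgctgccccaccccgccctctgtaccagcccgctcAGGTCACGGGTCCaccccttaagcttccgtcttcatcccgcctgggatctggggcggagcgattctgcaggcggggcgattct
Etfa (chr9:55512244-55512493, minus strand): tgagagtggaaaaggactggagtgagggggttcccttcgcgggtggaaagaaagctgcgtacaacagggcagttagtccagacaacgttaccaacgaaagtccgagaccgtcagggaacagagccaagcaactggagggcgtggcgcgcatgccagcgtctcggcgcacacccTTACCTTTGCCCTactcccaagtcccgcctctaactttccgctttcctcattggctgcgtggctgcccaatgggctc
Each match carried 2 mismatches. Counted from the start, they ran from -51 to -39 in Ucp3, -63 to -51 in Cd36, -77 to -65 in Etfa, -83 to -71 in Echs1 and -225 to -213 in Plin2. A single copy of AGGTCA, on either strand, was present in 29.6% of the listed genes and 15% of the genes tested, among those with a window. It overlaps the repeat in Plin2, Ucp3 and Echs1. TCAAGGTCA, the element of estrogen-related receptors, which also holds a copy of AGGTCA, was in none of the 29 windows of listed genes and in 0.3% of windows of genes tested. These matches describe letters in short windows, not binding.

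Most of the 29 genes read lower on average in NZB_W hearts, by small amounts, and none passed the test. The mean log2 difference was below 0 in 26 of 29 genes, against 54.5% of all genes tested, and the median over the 29 was -0.19, against -0.014 over all genes. With limma and Benjamini-Hochberg adjustment over all genes, 0 of the 29 had an adjusted p under 0.05, the lowest being 0.585, while 1 of the 11903 genes (0.0084%), Mtm1, passed. At an unadjusted p under 0.05 there were 3, Ppara and Acot1 below 0 and Hadh above 0, where 3.03% of all genes passed that mark on the lower side and 2.51% on the higher side. The difference was under 0.25 in size in 19 of the 29 genes, and the 95% interval held 0 in 26. All NZB_W arrays lay below both NZW arrays in 9 of the 29 genes, against 9.84% of all genes, and above both in 1, against 7.6%. The count of 9 became 22 without NZW array 1, a setting in which 26.3% of all genes lay below a single remaining NZW array. It stayed at 9 without NZB_W array 3 (17.4% of all genes in that setting) and without NZW array 2 (21.3%). Without both arrays it was also 9, or 31% of the 29, against 31.8% of all genes. The count of 1 became 4 without NZB_W array 3 (11.9% of all genes in that setting) and 2 without NZW array 2 (17.5%), shares near or above those of the 29.

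**Figure D1:**
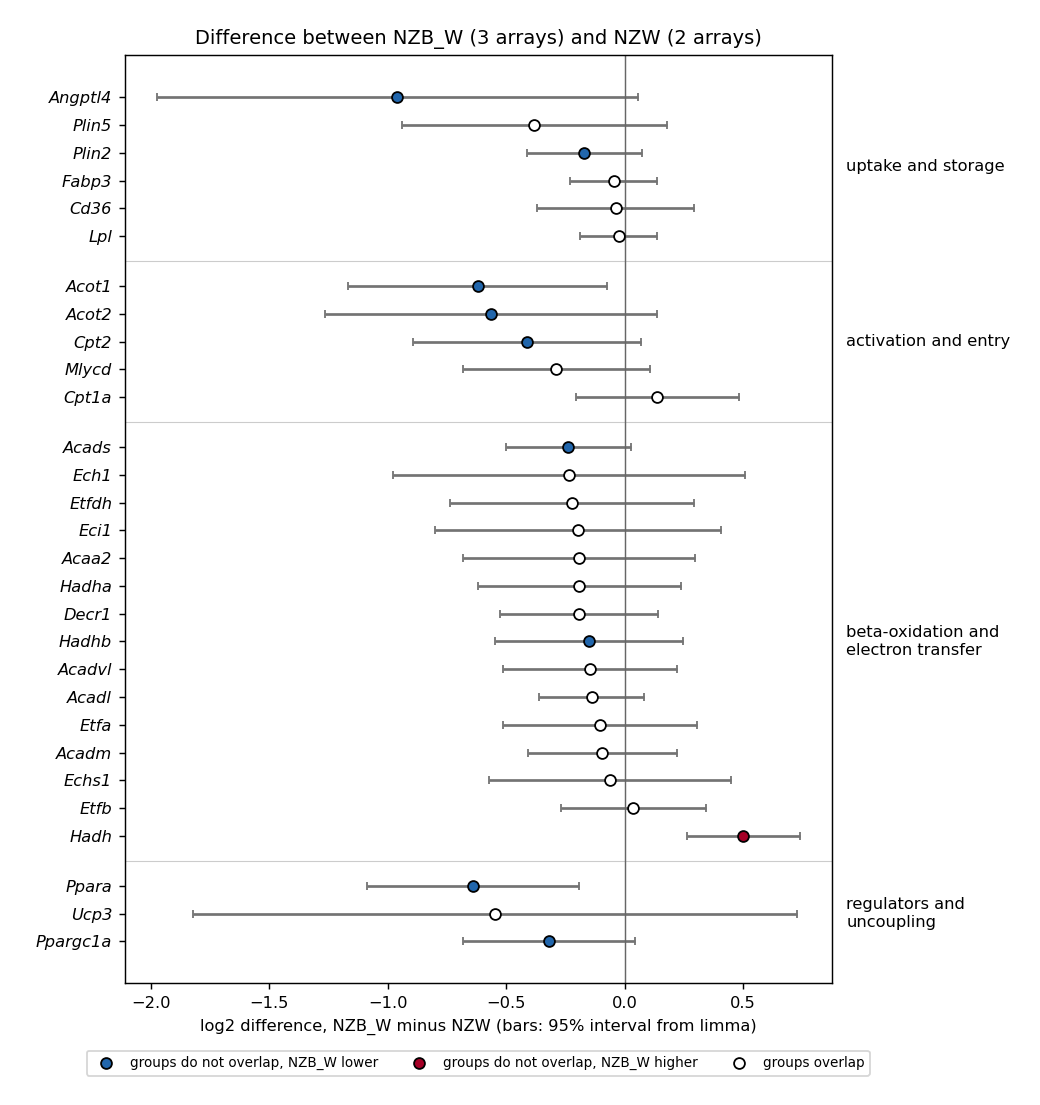
Mean log2 difference, NZB_W (3 arrays) minus NZW (2 arrays), for each of the 29 genes, ordered by role, with 95% intervals from limma as bars. Filled points mark genes whose groups do not overlap (9 lower, 1 higher in NZB_W), and the intervals of Ppara, Acot1 and Hadh are the 3 that do not hold 0.

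A single NZB_W animal read lower than the others across most of the list. NZB_W array 3 gave the lowest of the 5 values in 26 of the 29 genes (89.7%), against 25.6% of all genes, and lay below the mean of NZB_W arrays 1 and 2 in 28 of them, by a median of -0.31 against 0.019 over all genes. The widest of these gaps were -1.07 in Ucp3 and -0.81 in Ech1, and the exception was Acot1, at 0.13. NZW array 2 gave the highest value in 18 genes (62.1%), against 22.6% of all genes. Leaving out NZB_W array 3 brought the median difference to -0.046, with 19 of 29 genes below 0. Leaving out NZW array 2 brought it to -0.11, with 26 below 0, and leaving out both to 0.0034, with 14 below 0.

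**Figure D2:**
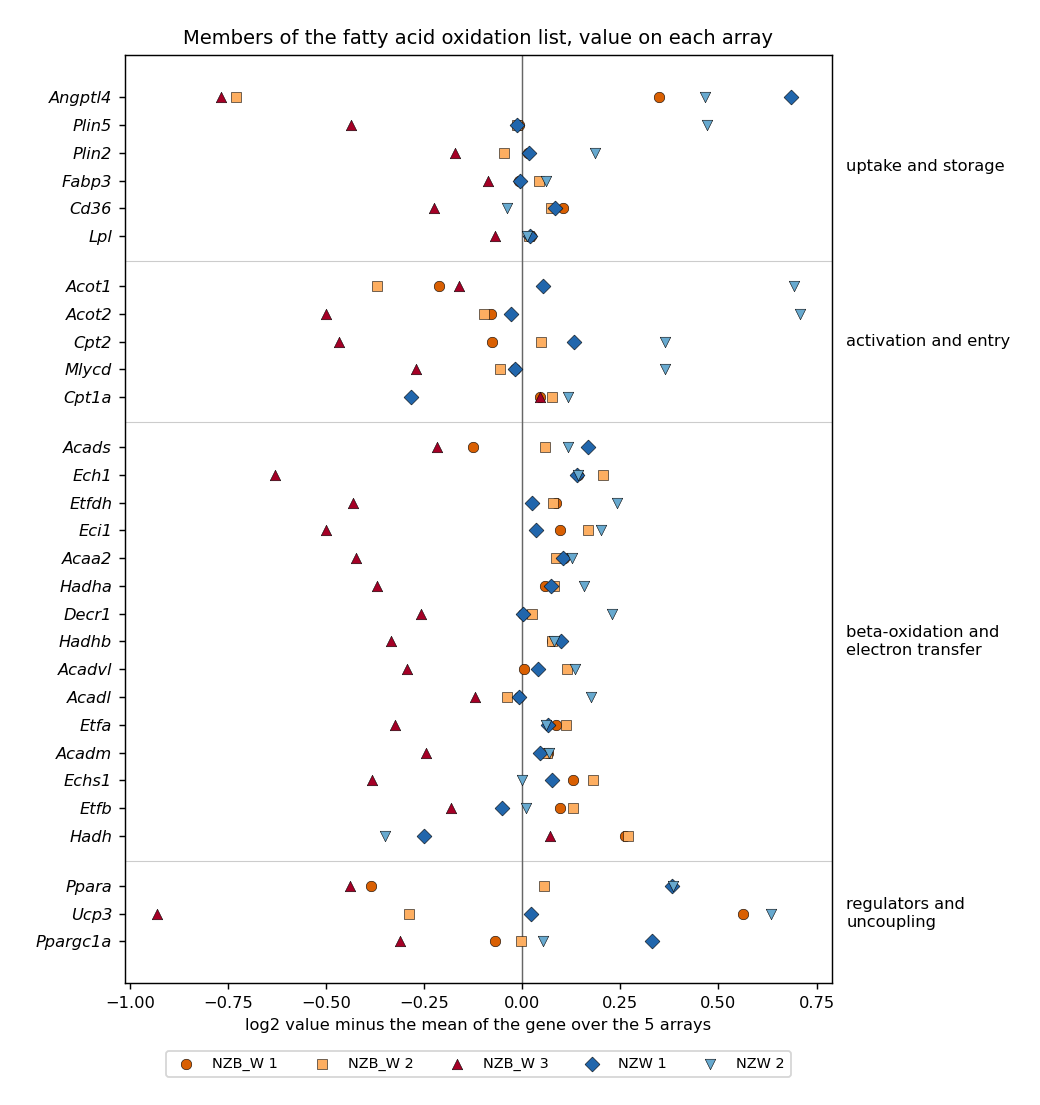
Value of each of the 29 genes on each of the 5 arrays, as log2 value minus the mean of that gene over the arrays, ordered by role. The triangles of NZB_W array 3 lie furthest left in 26 rows, among them 14 of the 15 rows of beta-oxidation and electron transfer.

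**Figure D3:**
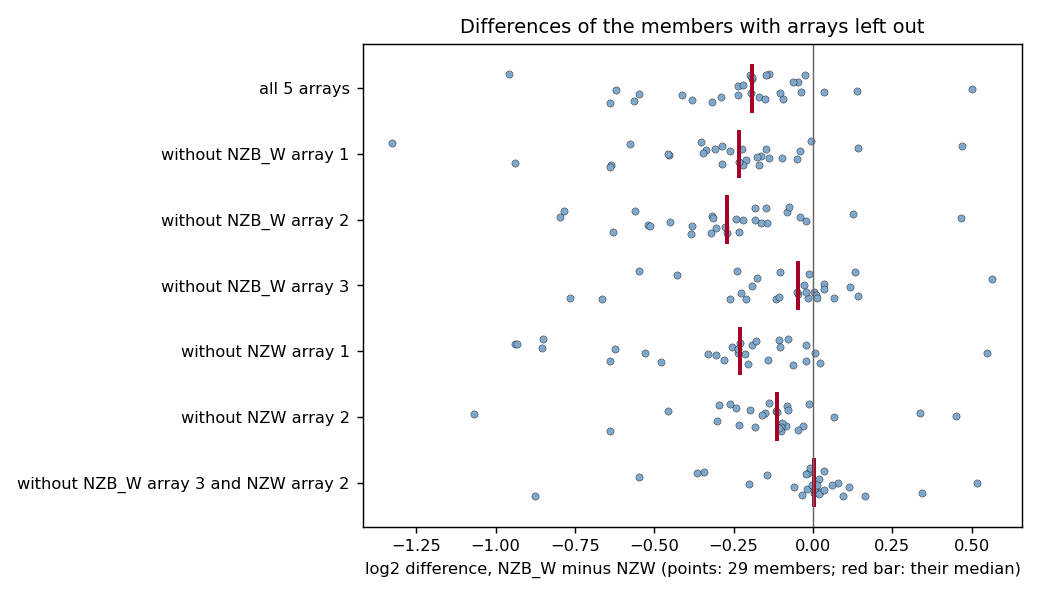
Log2 differences of the 29 genes (points, spread vertically only to separate them) and their median (red bar) with all 5 arrays and with arrays left out. The median moves from -0.19 with all arrays to -0.046 when NZB_W array 3 is left out and to 0.0034 when NZW array 2 is left out as well, while Hadh stays the point furthest to the right in each setting.

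NZB_W array 3 and NZW array 2 also stood apart in control probe sets, and NZB_W array 3 in several marker sums. The difference between the 5′ and 3′ probe sets of the beta-actin control, a sign of RNA integrity, was -1.31 and -1.19 on them and -0.88 to -0.89 on the other 3. The same difference for Gapdh was -0.16 on NZB_W array 3, 0.048 on NZW array 2 and 0.11 to 0.17 on the others. The 18S control read 12.69 on NZW array 2 and 9.97 to 10.47 on the others. Summed over its 16 tested genes of 17, the macrophage marker list read 11535 on NZB_W array 3, 6189 and 6678 on the other NZB_W arrays and 4146 to 5650 on the NZW arrays, in units of linear signal, and all 16 had a higher mean in NZB_W. The 12 fibroblast markers summed to 24944 on NZB_W array 3, 12763 and 14159 on the other NZB_W arrays, and 15037 to 17008 on the NZW arrays. The 18 cardiomyocyte markers summed to between 199900 and 206269 in NZB_W and between 200653 and 201802 in NZW. The 12 endothelial markers summed to 5099 to 6190 in NZB_W and 5137 to 5168 in NZW, and the 4 tested of 9 erythroid markers to 1718 to 3567 and 1486 to 1547. Of 14 adipocyte markers, 7 were not tested, Plin1, Lep and Ucp1 among them. The other 7 summed to 7696 to 9255 in NZB_W and 7888 to 8722 in NZW. Fabp4, at 12.67 to 13.03, was the brightest of the 7 on every array and makes up most of these sums. By the median of the 7, each gene centred on its mean, the NZW arrays lay far apart, at 0.73 on array 1 and -0.35 on array 2. The NZB_W arrays lay between them, from -0.15 to 0.059. In whole tissue, fewer cells of a type and less RNA per cell cannot be told apart, and the part of RNA integrity or cell makeup in the values of the fatty acid genes was not tested.

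Among regulators and uncoupling, all 3 tested genes had a mean difference below 0, with a median of -0.55, and in Ppara and Ppargc1a the groups did not overlap. Ppara, the receptor itself, read 9.20, 9.64 and 9.15 on NZB_W arrays 1 to 3 and 9.97 on both NZW arrays, so every NZB_W value lay below the NZW values. Its means were 9.33 ± 0.272 (SD, n = 3) and 9.97 ± 0.00137 (SD, n = 2). They differed by -0.64 in log2 units (SE 0.17, limma adjusted p = 0.786), or 1.56-fold lower. Of its 2 other probe sets, 1439675_at differed by -0.17 and 1457721_at by -0.13, and on both the groups overlapped, with NZB_W array 2 the highest of the 5. The mean over all Ppara probe sets differed by -0.31.

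Ppargc1a had 5 probe sets, and all 5 had a mean difference below 0. The probe set that stood for it (1456395_at) read 9.97, 10.04 and 9.73 in NZB_W and 10.37 and 10.09 in NZW, without overlap, a difference of -0.32 (SE 0.14, limma adjusted p = 0.860). The largest difference was on 1460336_at, at 9.01, 9.20 and 9.19 against 9.72 and 10.27, or 1.82-fold lower (-0.87, SE 0.18, limma adjusted p = 0.696 over 22819 probe sets). On 1434099_at and 1434100_x_at the groups did not overlap either, with differences of -0.44 and -0.34, while on 1437751_at (-0.19) NZB_W arrays 1 and 2 tied with NZW array 2 at 9.70. NZB_W array 1, not array 3, was the lowest on 3 of the 5. With NZW array 1 left out, the difference of 1456395_at was -0.18.

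Ucp3, a mitochondrial carrier of skeletal and heart muscle that is induced by fatty acids, varied within both groups. Its NZB_W values were 7.004, 6.15 and 5.51 and its NZW values 6.46 and 7.07, with NZB_W array 1 close to the higher NZW array and array 3 the lowest. The difference of -0.55 had a 95% interval from -1.82 to 0.73, and it became -0.94 without NZB_W array 1, -0.19 without NZB_W array 3, -0.85 without NZW array 1, -0.24 without NZW array 2 and 0.11 when NZB_W array 3 and NZW array 2 were both left out. Its second probe set followed the same course, at 6.53, 5.73 and 4.98 against 6.16 and 6.64.

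Among genes of uptake and storage, the brightest (Lpl, Fabp3 and Cd36) lay near 0 on their brightest probe sets and the others further below it. All 6 had a mean difference below 0, with a median of -0.11, and in 2 the groups did not overlap. Lpl read 13.87, 13.86 and 13.77 in NZB_W and 13.86 on both NZW arrays, with NZB_W array 1 the highest of the 5, and its 95% interval ran from -0.19 to 0.14. Fabp3 differed by -0.046, with an interval from -0.23 to 0.14. Its much dimmer probe set 1444844_at, at 5.98 to 6.51, differed by -0.23, and its groups did not overlap. Cd36 read 12.48, 12.45 and 12.15 in NZB_W and 12.46 and 12.34 in NZW, a difference of -0.039 (SE 0.13), and was 0.066 without NZB_W array 3. Its 95% interval ran from -0.37 to 0.29. The other Cd36 probe sets differed by 0.0059 (1450883_a_at) and -0.29 (1450884_at), and on both the groups overlapped. The other Lpl probe set differed by 0.0019.

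Angptl4, the secreted inhibitor of lipoprotein lipase and a PPAR target, had the largest difference of the 29. Its values were 6.76, 5.68 and 5.64 on the NZB_W arrays and 7.09 and 6.87 on the NZW arrays, where NZB_W array 1 lay just under the NZW arrays and the other NZB_W arrays lay more than 1 unit lower. The difference was -0.96 (SE 0.39, limma adjusted p = 0.860), or 1.94-fold lower, with means of 6.02 ± 0.633 (SD, n = 3) and 6.98 ± 0.155 (SD, n = 2). Its only other probe set was dim on every array. The lipid droplet coats Plin2 and Plin5 differed by -0.17 (SE 0.093) and -0.38 (SE 0.21). Plin2 read 9.28, 9.22 and 9.09 against 9.28 and 9.45, a gap between the groups of under 0.01, and its difference was -0.086 without NZW array 2. Plin5, which tethers droplets to mitochondria, read 10.10, 10.09 and 9.67 against 10.09 and 10.57. Only NZB_W array 3 and NZW array 2 stood off the common value of Plin5, whose difference was -0.14 without NZW array 2, -0.62 without NZW array 1, -0.24 without NZB_W array 3, and 0.0034 when NZB_W array 3 and NZW array 2 were both left out.

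In activation and entry into the mitochondrion, 4 of 5 genes had a difference below 0, with a median of -0.41, and NZW array 2 was the highest array for all 5. The thioesterases Acot1 (cytosolic) and Acot2 (mitochondrial) cut fatty acids from coenzyme A. Acot1 read 5.53, 5.37 and 5.58 in NZB_W and 5.80 and 6.44 in NZW, a difference of -0.62 (SE 0.21, limma adjusted p = 0.860) or 1.54-fold lower, without overlap and without NZB_W array 3 being the lowest. Acot2 read 9.37, 9.35 and 8.95 against 9.42 and 10.16, a difference of -0.57 (SE 0.27). Its dimmer probe set differed by -0.45. With NZW array 2 left out, Acot1 differed by -0.30 and Acot2 by -0.20. With NZW array 1 left out, the differences were -0.94 and -0.93. Acot2 was at -0.06 when NZB_W array 3 and NZW array 2 were both left out. Acot1 and Acot2 are closely similar paralogs, so how far their probe sets tell them apart is uncertain.

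Cpt2, the inner membrane carnitine palmitoyltransferase, read 10.47, 10.60 and 10.08 against 10.68 and 10.91, a difference of -0.41 (SE 0.18, limma adjusted p = 0.860). Its dimmer probe set gave -0.40 (SE 0.10), also without overlap. Leaving out NZB_W array 3 gave -0.26, and leaving out NZW array 2 as well gave -0.15. Mlycd, which removes malonyl-CoA and so lifts the brake on carnitine palmitoyltransferase 1, read 8.37, 8.33 and 8.12 against 8.37 and 8.76, with a difference of -0.29 (SE 0.15) that was -0.096 without NZW array 2 and -0.48 without NZW array 1. Cpt1a, the liver form of carnitine palmitoyltransferase 1, differed by 0.14 (SE 0.13), with NZW array 1 the low value at 7.499 and the other 4 arrays at 7.83 to 7.90. It was -0.062 with NZW array 1 left out and 0.34 with NZW array 2 left out.

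Of the 15 genes of beta-oxidation and electron transfer, 13 had a mean difference below 0, with a median of -0.15, and the 13 ran from -0.24 (Acads) to -0.062 (Echs1). NZB_W array 3 was the lowest array for 14 of the 15, by a median of -0.41 below the mean of the other NZB_W arrays. With that array left out, 8 of 15 genes were below 0 and the median of the 15 was -0.014, from -0.18 in Acads to 0.57 in Hadh. An example is Ech1, an isomerase for unsaturated chains, which read 12.99, 13.06 and 12.22 in NZB_W and 12.99 on both NZW arrays.

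By step, the acyl-CoA dehydrogenases for very long, long, medium and short chains differed by -0.15 (Acadvl), -0.14 (Acadl), -0.095 (Acadm) and -0.24 (Acads). Acads read 9.42, 9.60 and 9.33 against 9.71 and 9.66 and did not overlap (SE 0.10, limma adjusted p = 0.860). Acadl read 12.81, 12.78 and 12.70 against 12.81 and 12.99, so only NZW array 2 stood above the rest. The subunits of the trifunctional protein, which hydrates, dehydrogenates and cleaves long chains, differed by -0.19 (Hadha) and -0.15 (Hadhb). Hadhb counted as not overlapping by a gap of under 0.01, with 13.43, 13.43 and 13.02 against 13.45 and 13.43. The short-chain hydratase Echs1, the thiolase Acaa2 and the auxiliary enzymes Eci1 and Decr1, which prepare unsaturated chains, differed by -0.062, -0.19, -0.20 and -0.19. The electron transfer flavoprotein subunits Etfa and Etfb differed by -0.11 and 0.036, and Etfdh by -0.22.

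Of the 14 genes with several tested probe sets, 8 had the same sign on all of them. Acaa2 differed by -0.19 on the probe set that stood for it, -0.40 on 1455061_a_at and 0.25 on 1428146_s_at, and Decr1 by -0.19 and 0.10. Over all probe sets of the 29 genes, 52 of 55 were bright enough to test, 41 of these were below 0 (against 54.4% of all probe sets tested) and 11 above. On 15 of the 52 the groups did not overlap on the lower side (9.66% of all probe sets) and on 3 on the higher side (6.96%), and 0 passed at an adjusted p of 0.05 (0.0219% of all did), with 9 at an unadjusted p under 0.05. These 9 belong to 5 genes: 6 were lower in NZB_W (2.98% of all probe sets), 3 of them of Ppargc1a, and 3 were higher (2.27%), all of Hadh. The 3 without overlap on the higher side were also those of Hadh.

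Hadh, the hydroxyacyl-CoA dehydrogenase of medium and short chains, had a higher mean in NZB_W and had the smallest p of the 29. The NZB_W arrays read 13.15, 13.16 and 12.96 and the NZW arrays 12.64 and 12.54, so even NZB_W array 3, the lowest NZB_W array, lay above both NZW arrays. The means were 13.09 ± 0.112 (SD, n = 3) and 12.59 ± 0.0693 (SD, n = 2), 0.50 apart in log2 units (SE 0.091, 95% interval from 0.26 to 0.74) or 1.41-fold higher, and the limma adjusted p of 0.585 did not pass. Its 2 other probe sets gave 0.55 (SE 0.14, 1460184_at) and 0.48 (SE 0.11, 1436756_x_at), each without overlap. The difference was 0.45 to 0.57 under the 17 alternatives run, the lowest adjusted p being 0.190 with array weights.

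**Figure D4:**
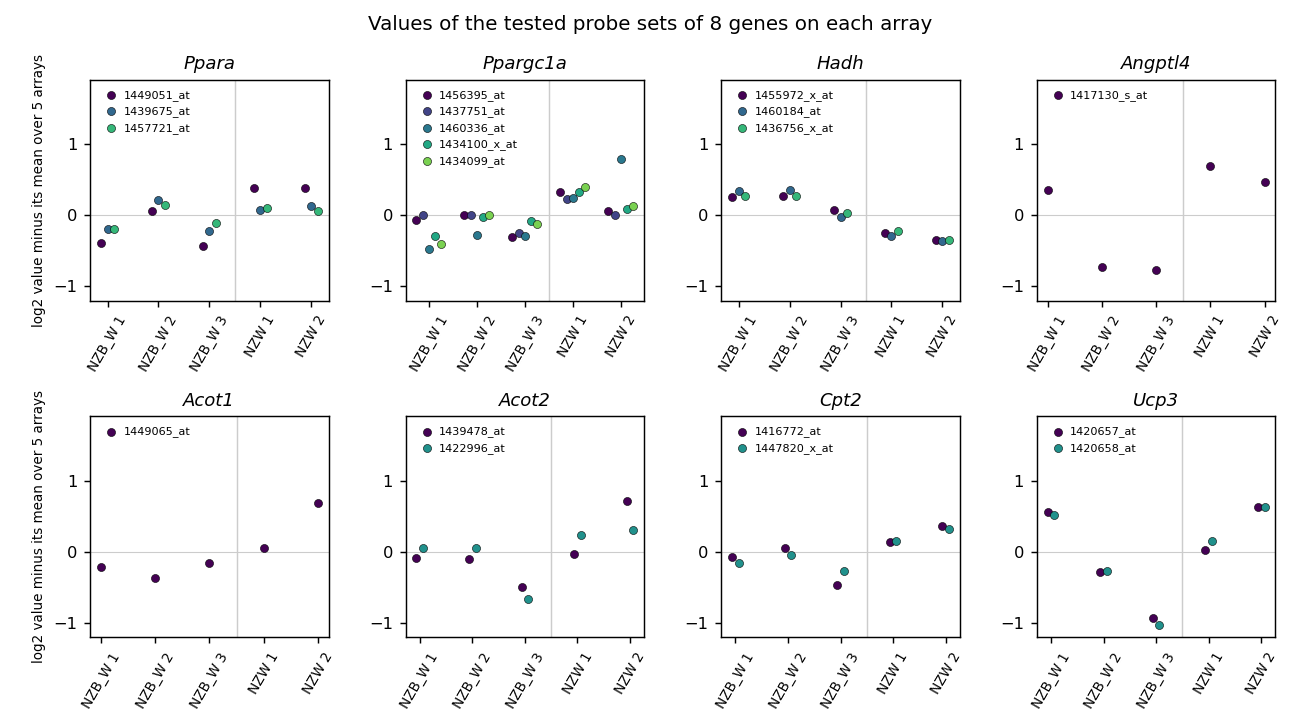
Values of each tested probe set of 8 genes on each array, as log2 value minus the mean of that probe set over the 5 arrays. The 3 Hadh probe sets sit higher on all NZB_W arrays, 4 of the 5 Ppargc1a probe sets sit lower on all NZB_W arrays, with 1460336_at furthest apart and 1437751_at tied between groups, and of the 3 Ppara probe sets only 1449051_at separates the groups.

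The wider pathway was read from 4 lists of other genes, with 85 tested genes that are not among the 29. Their mean differences were below 0 in 64 of 85 (75.3%, against 54.5% of all genes tested), with a median of -0.11 against -0.014 over all genes. With limma, 0 passed at an adjusted p under 0.05 (0.0084% of all genes did). At an unadjusted p under 0.05 there were 3, all lower: Crat, Abcd2 and Ppard. Of all genes, 3.03% passed that mark on the lower side, a share near that of these genes. The groups did not overlap in 14 on the lower side (16.5%, against 9.84% of all genes) and in 3 on the higher side (3.53%, against 7.6%). In activation and entry 15 of 17 were below 0, among them Crat, carnitine acetyltransferase, which read 9.95, 10.11 and 9.73 against 10.22 and 10.36 (-0.36, SE 0.13), and the thioesterase Acot13 (-0.32). In oxidation, a mixed list of peroxisomal and mitochondrial enzymes and peroxisomal transporters, 16 of 19 were below 0. The fatty acyl transporter Abcd2 differed by -0.64 (SE 0.22), at 4.70, 4.73 and 4.19 against 5.37 and 4.99. Abcd2 was dim, near the array medians of 4.62 to 4.68, with NZB_W array 3 below its array median. The transporter Abcd3 (-0.34) and the PPAR-induced peroxisome protein Pex11a (-0.35) were also below 0. In uptake and storage 16 of 22 were below 0. In the list of regulators and targets 17 of 27 were below 0 and 10 above, with a median of -0.035, against -0.014 over all genes.

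Among the other regulators, Ppard and Sirt3 had the smallest p of their list, with opposite signs. Ppard, which encodes the related receptor PPAR delta, differed by -0.26 (SE 0.086) and did not overlap, at 5.72, 5.91 and 5.84 against 6.02 and 6.14. Sirt3, the mitochondrial deacetylase, went the other way, at 8.22, 8.37 and 7.91 against 7.83 and 7.75 (0.38, SE 0.15). Pdk4, the PPAR-driven kinase that turns off pyruvate dehydrogenase, had a difference of -0.93 with an interval from -2.56 to 0.70. It read 11.94, 10.75 and 10.08 in NZB_W and 11.41 and 12.29 in NZW, with NZB_W array 1 and NZW array 2 high and NZB_W array 3 lowest, the order also seen in Ucp3.

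Beside neighbouring pathways, the respiratory chain had 40 of 44 genes below 0 but a median of -0.05, the citrate cycle 10 of 13 and -0.095, and glycolysis 7 of 17 and 0.014. NZB_W array 3 was the lowest array for 81.8% of respiratory chain genes, 76.9% of citrate cycle genes and 35.3% of glycolytic genes. Scaling each array to the respiratory chain list left 22 of the 29 fatty acid genes below 0 with a median of -0.13, and scaling to cardiomyocyte markers left 26 with -0.22. The differences between these lists were not tested.

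**Figure D5:**
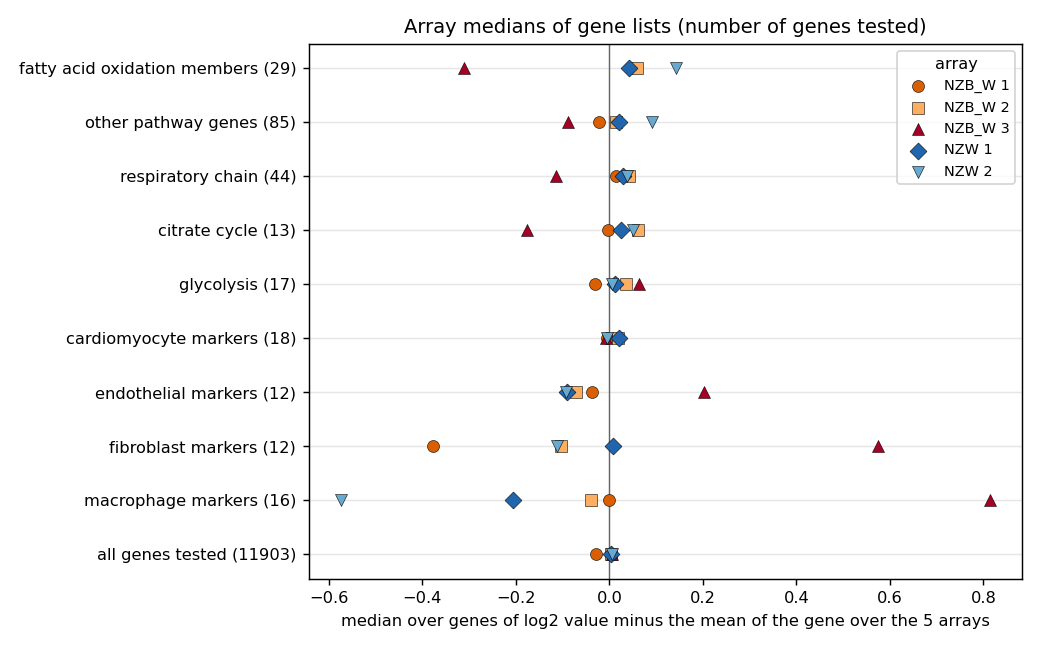
Array medians of the 29 fatty acid genes, of related lists and of cell type markers, as the median over genes of log2 value minus the mean of each gene over the arrays. NZB_W array 3 is the lowest in the lists of mitochondrial fuel use (-0.31 for the 29 genes, -0.11 for the respiratory chain) and the highest in the endothelial (0.20), fibroblast (0.57) and macrophage (0.81) lists.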

How the data were processed

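The deposited values are expression levels on a log2 scale, 1 per probe set and array, made by the authors; RMA, GCRMA and Partek appear in the submitters' processing notes with no role, so it is unknown which of RMA and GCRMA made them. Labelled cRNA was made from 6 µg of total RNA, per the labels' protocols. No detection calls were used. Precision is limited by having 5 arrays.

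All 5 columns match a sample. Of 45101 probe sets, 34958 carry 1 gene symbol, 932 several and 9211 none in the annotation used. Each gene took its probe set with the highest mean and was kept when above the array median (over probe sets other than controls) on at least 2 arrays. The values were tested as deposited by two-sided moderated tests without covariates (lmFit, eBayes; limma 3.58.1, R 4.3.3), and p-values were adjusted by Benjamini-Hochberg over 11903 genes, or 22819 probe sets in their own fit, at a threshold of 0.05. The prior added 1.69 degrees of freedom to 3. SE is moderated, SD is over the arrays of a group, and a fold is 2 to the power of the size of the log2 difference. The code was tested on simulated data.

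The 32 genes, the other lists, the naming rule and the alternatives were chosen with earlier results of these data known. The rule names all 32 genes, gives array values for the 12 with the smallest p and for Cd36, and names up to 4 genes of each other list. Pdk4 and the array values of other genes were added after their values were seen. Figures were drawn with matplotlib 3.10.9.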

Additional observations from a re-analysis of the deposited data

How the results depend on the processing

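With 3 arrays against 2, none of the 29 genes passed under any of the 17 alternatives (lowest adjusted p 0.190, Hadh with array weights). Of the 29, 14 kept the sign of their difference under all alternatives in which they were tested, and 15 changed it under at least 1. The genes passing over the whole table numbered 1, and 6 when arrays were scaled to the respiratory chain list (1 lower, 5 higher), 5 with the mean of all probe sets (1 lower, 4 higher), 2 without _s_at, _x_at and _a_at probe sets, 8 with array weights (3 lower, 5 higher), 0 with the replicate block, 0 without NZB_W array 3 and NZW array 2 together, and 0 to 1 with single arrays left out. The fatty acid genes without overlap on the lower side numbered 15 when scaled to cardiomyocyte markers (25.1% of all genes). They numbered 9 without both arrays (31.8%) and 9 to 22 with single arrays left out (12.1% to 26.3% of all genes). Those on the higher side numbered 4 with the replicate block (11.9% of all genes), 9 without both arrays (23.6%) and 1 to 4 with single arrays left out (10.6% to 21.4%). Genes below 0 numbered 14 without both arrays, with a median of 0.0034, 23 with array weights, with a median of -0.074, and with single arrays left out 19 to 27, with a median from -0.27 to -0.046. The cause of these shifts was not tested.

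The genes that changed sign, none of which passed, are given next by setting. With array weights they were Cd36 (0.032), Etfa (0.0097) and Echs1 (0.088). Scaled to the respiratory chain list they were Cd36 (0.025), Lpl (0.038), Echs1 (0.0019) and Fabp3 (0.018). With the replicate block, a fit on arrays 1 and 2 of each group, they were Lpl (0.0032), Acadm (0.0086), Etfa (0.036), Cd36 (0.066), Echs1 (0.12), Eci1 (0.014) and Ech1 (0.034). Without NZB_W array 3 and NZW array 2 together they were Etfa (0.033), Decr1 (0.012), Eci1 (0.096), Echs1 (0.078), Fabp3 (0.023), Cd36 (0.0044), Etfdh (0.059), Acadvl (0.018), Acadm (0.020), Plin5 (0.0034), Ech1 (0.035) and Ucp3 (0.11). With single arrays left out, the ranges that crossed 0 were -0.15 to 0.0086 (Acadm), -0.10 to 0.066 (Cd36), -0.062 to 0.34 (Cpt1a), -0.39 to 0.034 (Ech1), -0.16 to 0.12 (Echs1), -0.32 to 0.014 (Eci1), -0.18 to 0.036 (Etfa), -0.021 to 0.13 (Etfb) and -0.042 to 0.0032 (Lpl).

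The replicate numbers name arrays and are not said to pair animals. Deviations from the group means correlated at -0.257 between the arrays numbered 1 and at 0.102 between those numbered 2, across genes that are not independent. With only 2 NZW arrays, their deviations mirror each other. The unlike pairs were thus fixed at 0.257 (NZB_W 1 with NZW 2) and -0.102 (NZB_W 2 with NZW 1), and pairing was not settled by these values. The block fit used only arrays 1 and 2 of each group, a balanced layout in which a block cannot change a difference. Its median difference of -0.046, with 19 of 29 genes below 0, is therefore that of leaving out NZB_W array 3. The variance model, quantile scaling, median centring and the filters on dim probe sets changed neither the count below 0 nor the absence of calls among the 29.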
